A study of Gossypium hirsutum with 51 samples.

Results

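Wild-type ovules of upland cotton (Gossypium hirsutum) aged +20 days post anthesis were compared with wild-type ovules aged +15. Anthesis is the opening of the flower, so both ages lie late in the growth of the fibres on the ovule. No array carried both RNAs. Each age had been hybridised against wild-type ovules of age +3 on 2-colour cDNA arrays, and the contrast was formed through +3, as the log2 ratio of +20 over +3 minus the log2 ratio of +15 over +3. It used 12 of the 51 arrays of the series, chosen by their labels. These were 3 sets for +20 and 3 sets for +15, each set an array and its dye swap, which were averaged to 1 value. The design text calls the samples biologically independent, and n below counts sets. Both groups, and the +3 ovules they share, are wild type. The remaining arrays compared wild-type ovules of other ages with +3, wild type with the fl mutant at +3 and +10, or +3 with itself.

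A cotton fibre is a single cell that grows out of the surface layer of the ovule. It first elongates within a thin primary wall and later deposits a thick secondary wall of nearly pure cellulose, and the ages compared here fall around the passage from one phase to the other. Actin and tubulin, the proteins of microfilaments and microtubules, organise growth and the orientation of wall deposition in such cells. Whole ovules also hold the seed coat, the endosperm and the growing embryo. A lower level in whole ovules can mean fewer cells of a type or less RNA in each cell, and these cannot be told apart here.

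The table held 11682 clones, 11 spots under gene-like names and 13 controls. Clones are known only by plate and well, CM042D09 being well D09 of plate 42, and none could be given a gene name, so genes of the secondary wall or of elongation could not be counted as groups. Arrays of +20 measured 9593 to 11166 clones and arrays of +15 measured 9954 to 11577. The number of arrays limits the precision, since spot brightness was not used here. Values are log2 ratios read as the late age over +3, which is the order in the array titles but is not stated for the values. A control spot named HEX read -9.97 to -7.16 on forward arrays and 7.71 to 9.11 on dye swaps at +20. At +15 it read -10.5 to -9.70 and 9.25 to 11.9. This change of sign shows that forward and dye-swap ratios were turned alike. It does not by itself show which age stands over the other. If all ratios run the other way, higher and lower exchange places throughout. The median absolute log2 ratio of an array, its spread, was 0.390 to 0.641 at +20 and 0.386 to 0.582 at +15, so the ages overlapped in spread. Across clones, sets of one age correlated at 0.94 to 0.96 for +20 and at 0.92 to 0.96 for +15.

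One plate of clones set the arrays of +20 apart from those of +15. On the +20 arrays, clones in the same wells of plates 107 and 108 had nearly the same ratios, with a Pearson r of 0.976 over 73 wells and of 0.804 to 0.967 on single arrays. On the +15 arrays the same r was -0.07 over 69 wells, and -0.08 to 0.01 on single arrays. The highest r among 7502 other pairs of plates was 0.453 at +20 and 0.463 at +15. The comparisons of -3, +5 and +10 with +3 and of wild type with fl at +3 resembled +20, with r between 0.886 and 0.979, and those of 0 with +3 and of wild type with fl at +10 resembled +15, at 0.04 and 0.03. Between the ages, plate 108 at +20 correlated with the same wells of plate 107 at +15 at 0.892 (69 wells). With plate 108 itself at +15 the r was -0.0015 (66 wells), while plate 107 at +20 and +15 gave 0.880 (72 wells). The values of plate 108 at +20 thus followed plate 107 at +15, and not plate 108. The reason was not tested, and differences in clones of plate 108 are not read as changes with age. Of the 66 clones of plate 108 tested, 41 (62.1%) were called, 18 higher and 23 lower at +20. On each of the other 122 plates with at least 20 clones tested, 2.17 to 18.4% were called. Results are given with and without plate 108. Any other difference between these 2 kinds of array cannot be told apart from age.

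**Figure D1:**
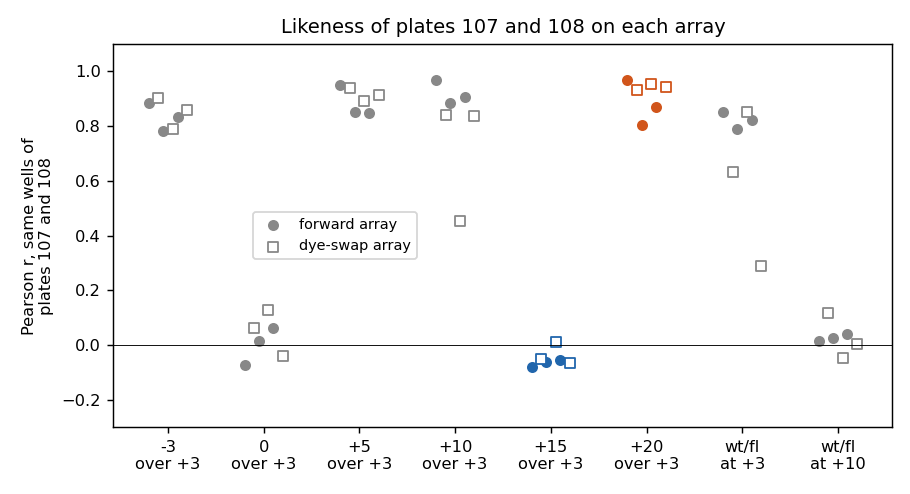
Pearson r between the log2 ratios of clones in the same wells of plates 107 and 108, 1 point per array, for the 8 comparisons; filled circles are forward arrays and open squares dye swaps. The arrays of +20 lie between 0.804 and 0.967 and those of +15 between -0.08 and 0.01.

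Few probes differed strongly between +20 and +15. Of 10257 probes tested, 10246 clones and 11 spots, 403 were higher and 414 lower at +20 in the limma fit at an adjusted p under 0.05, together 7.97% of those tested (3.93% higher and 4.04% lower). At least 2-fold apart were 122 of them (1.19%), 39 higher and 83 lower. Without plate 108, 379 were higher (3.72%) and 381 lower (3.74%, 7.46% together), and 94 were at least 2-fold apart (0.922%), 27 higher and 67 lower. The median difference over all probes was 0.003 on the log2 scale, and 99% of probes differed by less than 1.12. For 9580 probes (93.4%) the 95% interval of the difference lay within 2-fold either way, and for 5144 (50.2%) within 0.5 on the log2 scale. For the other probes, differences of those sizes were not excluded by these 3 sets per age, and at an unadjusted p under 0.05 the number of probes was 2219. Of 8457 probes measured in all 6 sets, 2662 (31.5%) had values at +20 that did not overlap those at +15, 1323 higher and 1339 lower, and 707 of the 710 called among them were of this kind. The number called depended on single sets. It was 451 without set 3 of +20, 493 without set 2 of +15 and 527 without set 3 of +15, and 292 to 420 when the sets of one number were left out at both ages.

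**Figure D2:**
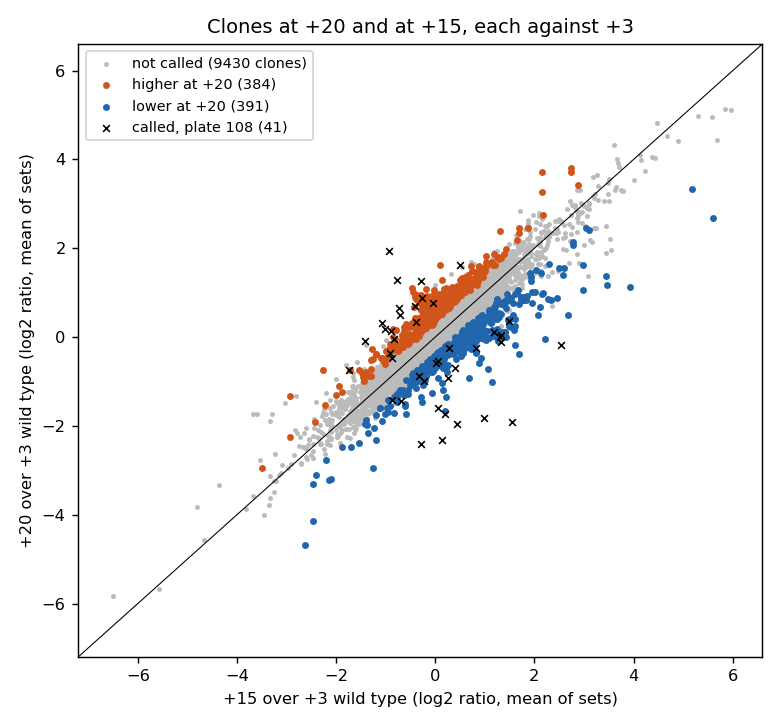
Mean log2 ratio to +3 wild type at +20 (vertical axis) and at +15 (horizontal axis), 1 point per clone tested, with the line of equal values. Clones called higher at +20 are orange, clones called lower are blue, and the 41 called clones of plate 108 are crosses, many of which lie far from the line.

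The number and the balance of increases and decreases depended on which arrays were scaled and which gave the estimate of error. When each array of the series was brought to a common spread, 123 probes were called higher and 234 lower at +20 (3.48% together, with 1.2% higher and 2.28% lower), and 66 were at least 2-fold apart (0.643%), 14 higher and 52 lower. Of the probes called on the deposited scale, 112 of the 403 increases (27.8%) and 229 of the 414 decreases (55.3%) were also called after scaling, and none was called in the opposite direction. The scaled fit added 11 increases and 5 decreases. The arrays of 0 against +3, which share the estimate of error, had spreads of 0.194 to 0.229 before scaling. When the 12 arrays of +20 and +15 were scaled only among themselves, 436 were called higher (4.25%) and 517 lower (5.04%). Together these were 9.29%, and 142 were at least 2-fold apart (1.38%). In a fit of these 12 arrays alone, 495 were higher and 524 lower (9.93% together). Both scalings divide each of the 12 arrays by its own spread and differ only in the spread they are brought to. Clone differences thus stand in a fixed proportion, such as -2.33 with every array scaled and -2.96 within the 12 for CM042D09. The calls differ through the estimate of error, and a 2-fold cut is stricter with every array scaled. Without plate 108 and with scaling of every array, 102 were higher and 206 lower (2.02%, or 3.02% together), 48 at least 2-fold (0.471%). With centring added to the scaling of every array, 451 were called (4.4%), 146 of them higher (1.42%) and 58 at least 2-fold apart (0.565%).

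Most of the clones with the largest increases at +20 were near or below the level of +3 at +15 and above it at +20. They were taken from clones called in both the deposited and the scaled values whose sets did not overlap, here without plate 108, which left 81 increases and 190 decreases to choose from. Clone CM047E06 had log2 ratios to +3 of 1.10, 1.17 and 1.02 at +20, against -0.56, -0.38 and -0.50 at +15. The sets were far apart, and the difference was 1.57 ± 0.16 (SE, n = 3 sets at each age), 2.97-fold (limma adjusted p = 2.05e-06). Clone CM005H11 had 0.97, 0.98 and 0.92 at +20, against -0.41, -0.30 and -0.40 at +15, a difference of 1.32 ± 0.21 (SE, adjusted p = 0.000482). Clone CM056G01 had 0.97, 0.96 and 0.77 at +20, against -0.46, -0.25 and -0.54 at +15, and differed by 1.31 ± 0.17 (SE, adjusted p = 3.76e-05). For both clones the ratio was strongly negative before and on flowering day, at -3.64 and -4.39 for CM005H11 and at -3.15 and -3.77 for CM056G01 (ages -3 and 0). At +5 and +10 they stood close to their +20 level, at 0.92 and 1.02 for CM005H11 and 0.91 and 1.13 for CM056G01, so that +15 was the low point after +3. Values of +5 rest on sets 1 and 2 alone, and those of +10 on sets 1 and 3.

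Clones CM042H01, CM059B02 and CM053E09 had the same shape over the ages. Clone CM042H01 had 0.89, 0.85 and 0.90 at +20, against -0.31, -0.24 and -0.29 at +15, a difference of 1.16 ± 0.13 (SE, adjusted p = 5.31e-06). Clone CM059B02 had 0.69, 0.96 and 1.10 at +20, against -0.13, -0.13 and -0.25 at +15. Clone CM053E09 had 1.19, 1.03 and 0.96 at +20, against 0.12, 0.06 and -0.24 at +15. The differences of these last clones were 1.09 ± 0.17 and 1.08 ± 0.18 (SE, adjusted p = 0.000398 and 0.000487), and in each the lowest set of +20 lay above the highest of +15. Their ratios at -3 lay between -2.36 and -1.62, and at +5 between 1.13 and 1.43.

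Of the other named increases, some were above +3 at +15 and some below it. Clone CM019E04 was already above +3 at +15, with 3.18, 3.98 and 3.96 at +20, against 2.32, 2.27 and 1.90 at +15. It differed by 1.54 ± 0.20 (SE, adjusted p = 9.79e-05), although by 0.96 in the dye-swap arrays alone, where the adjusted p was 0.080. Clone CM118E07 had 2.08, 2.52 and 2.58 at +20, against 1.53, 1.34 and 1.03 at +15, and differed by 1.09 ± 0.17 (SE, adjusted p = 0.000632). Both were therefore above +3 at +15 and further above it at +20. Clone CM032E03 had 0.80, 1.10 and 1.13 at +20, against -0.35, -0.45 and -0.57 at +15, a difference of 1.47 ± 0.28 (SE, adjusted p = 0.00175), and its ratio was also high at -3 and 0, at 1.35 and 1.46. Clone CM048E10 had 0.84, 1.13 and 1.27 at +20, against -0.11, -0.15 and -0.28 at +15, and differed by 1.26 ± 0.15 (SE, adjusted p = 1.36e-05). The increase with the smallest adjusted p apart from those above and from plate 108 was CM028B12, at 0.86, 0.68 and 0.96 at +20, against -0.27, -0.14 and -0.31 at +15, a difference of 1.08 ± 0.11 (SE, adjusted p = 2.77e-06).

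The largest decreases at +20 were larger than the largest increases, and most were in clones that stood high at +15. Clone CM042D09 had 1.25, 1.06 and 1.10 at +20, against 3.53, 3.71 and 4.55 at +15. It was 6.93-fold lower, with a difference of -2.79 ± 0.20 (SE, n = 3 sets at each age; limma adjusted p = 1.51e-08). Clone CM084D01 had 1.10, 1.15 and 1.29 at +20, against 3.24, 3.29 and 3.83 at +15, a difference of -2.28 ± 0.17 (SE, adjusted p = 3.44e-08). These clones had like values at every age, at ages -3, 0, +5 and +10 being 0.04, -0.36, 0.96 and 1.25 for CM042D09, and 0.11, -0.29, 0.88 and 1.27 for CM084D01. Both returned at +20 to about their +10 level. The files do not say whether they are copies of one gene.

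Clone CM037C09 had the largest decrease of the clones named outside plate 108, with 1.98, 2.57 and 3.52 at +20, against 5.06, 4.95 and 6.83 at +15, a difference of -2.92 ± 0.46 (SE, adjusted p = 0.00187). Its sets had an SD of 0.78 at +20 and 1.05 at +15, and in the forward arrays alone the difference was -1.98 with an adjusted p of 0.084. Clone CM027E10 had 3.43, 3.23 and 3.38 at +20, against 4.55, 4.86 and 6.12 at +15, a difference of -1.83 ± 0.26 (SE, adjusted p = 0.000138). Set 3 of +15 was the highest for both clones, and the sets of the ages did not overlap. Clone CM060D07 had 1.01, 1.47 and 1.67 at +20, against 3.19, 3.95 and 3.21 at +15, and clone CM024E04 had 1.00, 1.08 and 1.12 at +20, against 2.83, 2.97 and 3.17 at +15. They differed by -2.07 ± 0.22 and -1.92 ± 0.19 (SE, adjusted p = 5.23e-06 and 2.05e-06). Both were still above the level of +3 at +20.

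Other decreases ended at different levels relative to +3. Clone CM026D11 had 0.04, -0.07 and -0.10 at +20, against 2.04, 2.30 and 2.32 at +15. The difference of -2.26 ± 0.12 (SE) had the smallest adjusted p of the decreases outside plate 108, 2.17e-10, and the ratio was positive at every other age measured, namely 2.21, 0.69, 1.90 and 1.28 (ages -3, 0, +5 and +10). Clone CM034C01 stayed above +3 in every set, with 0.39, 0.31 and 0.82 at +20, against 2.62, 2.77 and 2.62 at +15, a difference of -2.17 ± 0.24 (SE, adjusted p = 6.81e-06). Clone CM110B07 crossed from above +3 to below it, with -0.93, -0.85 and -1.24 at +20, against 1.15, 1.04 and 1.26 at +15, a difference of -2.16 ± 0.14 (SE, adjusted p = 6.44e-08). Clone CM083E03 was below +3 at both ages, with -4.20, -4.64 and -5.17 at +20, against -2.55, -2.39 and -2.97 at +15, a difference of -2.04 ± 0.21 (SE, adjusted p = 2.53e-06). Clone CM063E08 had 0.95, 0.92 and 0.79 at +20, against 2.30, 2.59 and 2.49 at +15, a difference of -1.57 ± 0.12 (SE, adjusted p = 6.44e-08), and lay between 0.00 and 0.33 at -3, 0, +5 and +10. Its level was therefore highest at +15 among the ages measured.

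**Figure D3:**
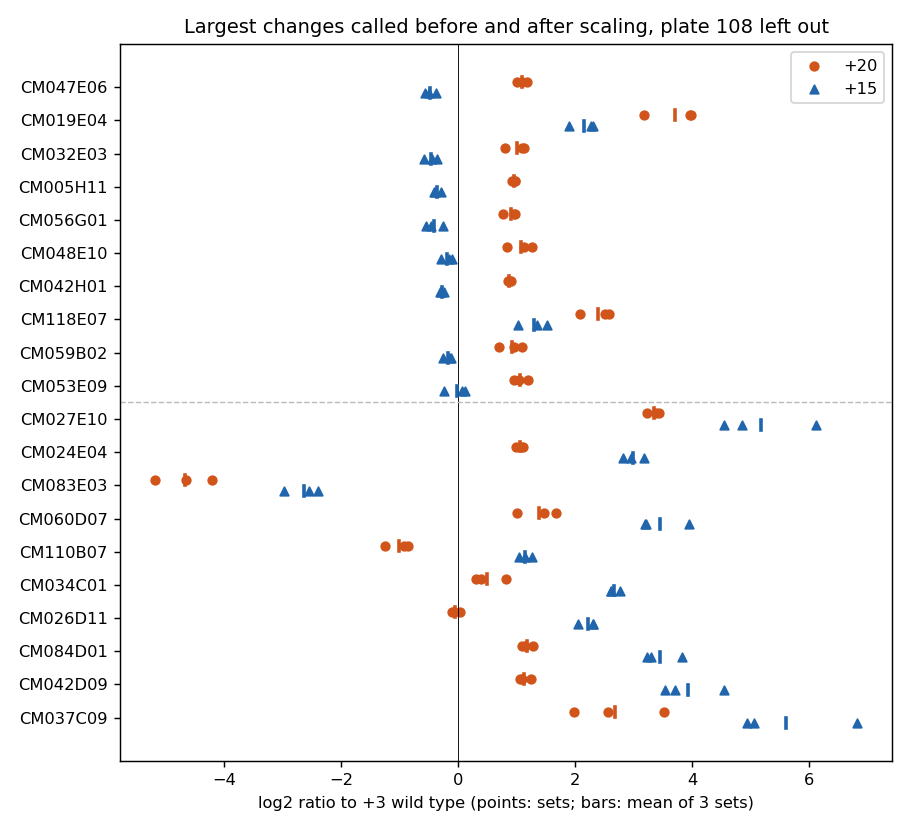
Log2 ratio to +3 wild type of the 10 largest increases (above the dashed line) and the 10 largest decreases (below it) among clones also called after array scaling whose sets do not overlap, plate 108 left out; orange circles are sets of +20, blue triangles sets of +15, and vertical bars the mean of 3 sets. In each of these clones the sets of +20 and +15 do not overlap, and most decreases stand above 2 at +15.

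Some large differences on the deposited scale missed the threshold after scaling of every array. Clone CM025C03 had 1.68, 1.58 and 1.59 at +20, against 0.41, -0.02 and -0.11 at +15, a difference of 1.52 ± 0.39 (SE, adjusted p = 0.0187, and 0.0739 after scaling). Clone CM032F06 had 0.94, 0.81 and 0.80 at +20, against -0.52, -0.31 and -0.34 at +15, a difference of 1.24 ± 0.30 (SE, adjusted p = 0.0117, and 0.0825 after scaling). Both clones kept their direction, and the sets of the ages did not overlap in either. Of the decreases, CM089D03 had -0.23, -0.34 and -0.45 at +20, against 0.91, 1.01 and 0.55 at +15 (adjusted p = 0.00135, and 0.0678 after scaling). Clone CM105F01 had -2.05, -2.11 and -2.77 at +20, against -0.75, -1.20 and -1.64 at +15 (adjusted p = 0.0119, and 0.0976 after scaling). With the scaling kept within the 12 arrays, the adjusted p-values of these 4 clones were 0.0213, 0.00968, 0.00121 and 0.012 in the same order.

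The clones farthest from +3 at both late ages did not pass the test between them. Clone CM013A08 had 4.77, 5.14 and 5.41 at +20, against 5.37, 5.20 and 7.32 at +15, a difference of -0.86 with a 95% interval of -1.82 to 0.10 (adjusted p = 0.292). Clone CM041D09 had 4.67, 5.08 and 5.67 at +20, against 4.54, 4.64 and 8.38 at +15 (difference -0.71, interval -2.29 to 0.86, adjusted p = 0.635). Clone CM086E04 had -5.54, -5.65 and -6.28 at +20, against -5.52, -5.45 and -8.52 at +15 (difference 0.67, interval -0.39 to 1.74, adjusted p = 0.486). In all 3 clones set 3 of +15 was the farthest from 0, and the intervals do not exclude changes of 2-fold or more. Clone CM099E09 had -5.44, -5.48 and -6.07 at +20, against -5.92, -5.17 and -5.64 at +15 (difference -0.09, adjusted p = 0.869). Its interval of -0.53 to 0.36 lay within 2-fold. The difference was -0.71 in its forward arrays alone and 0.54 in its dye swaps alone, which the interval of averaged sets does not carry. With scaling within the 12 arrays, CM013A08 and CM086E04 passed the threshold, at -1.23 and 1.08 (adjusted p = 0.0198 and 0.0416).

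The clones of plate 108 gave the extremes of the contrast. Their values at +20 followed plate 107, as stated above, so the differences below are not read as changes with age. Clone CM108A04 had -1.49 and -2.33 at +20 in the 2 sets measured, against 1.46, 1.49 and 1.69 at +15, the largest decrease of the contrast (-3.46 ± 0.19, SE). Clone CM108H11 had 1.87, 1.97 and 1.95 at +20, against -0.83, -0.97 and -1.03 at +15, the largest increase (2.87 ± 0.16, SE). Clones CM108H06, CM108F07, CM108C11 and CM108G06 were 1.22 to 2.05 higher at +20, and CM108B04, CM108D12, CM108H01 and CM108E03 were lower by differences of -2.81 to -1.93.

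Among the 11 spots under gene-like names, a tubulin spot was the one called. How these spots were normalized before deposit is not known, and array scaling and centring here changed the clones only. TUB1, which RefSeq's cotton table lists as a synonym of LOC107926975, had 1.71, 1.50 and 1.27 at +20, against 0.63, 1.03 and 0.88 at +15. The sets did not overlap, and the means were 1.49 ± 0.22 at +20 and 0.849 ± 0.20 at +15 (SD, n = 3 each), a difference of 0.64 ± 0.14 (SE) or 1.56-fold (limma adjusted p = 0.00678). Over the ages TUB1 was at -1.74 before flowering (age -3) and -0.72 on flowering day. It then stood at 1.25 (+5), 1.86 (+10), 0.85 (+15) and 1.49 (+20). The call was lost without set 1 of both ages (0.43, adjusted p = 0.146), in the forward arrays alone (0.64, 0.132), in the dye swaps alone (0.64, 0.173) and in a fit of +20 and +15 alone (0.64, 0.0527). TUB2, the other tubulin spot, had 0.59, 0.18 and -0.03 at +20, against -0.16, 0.47 and 0.66 at +15, with overlapping sets and a difference of -0.08 (interval -0.58 to 0.42, adjusted p = 0.905).

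The actin spots did not pass the test. ACT1 had -0.06, -0.29 and -0.32 at +20, against -0.67, -0.10 and -0.36 at +15, and ACT2 had 0.83, 0.36 and 0.33 at +20, against 0.42, 0.96 and 0.93 at +15. The sets of the ages overlapped for both, and the 95% intervals ran from -0.28 to 0.59 for ACT1 and from -0.67 to 0.14 for ACT2 (adjusted p = 0.735 and 0.472). RefSeq's table lists both names as synonyms of 1 gene, LOC107911661, so which actin each spot measured is not settled. The other 7 spots, ATP1, ATP2, CYC1, SDH, UQCR, USP1 and USP2, differed by -0.33 to -0.05 (adjusted p = 0.42 to 0.93). In each of the 11 spots, TUB1 included, set 1 was the highest at +20 and the lowest at +15.

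**Figure D4:**
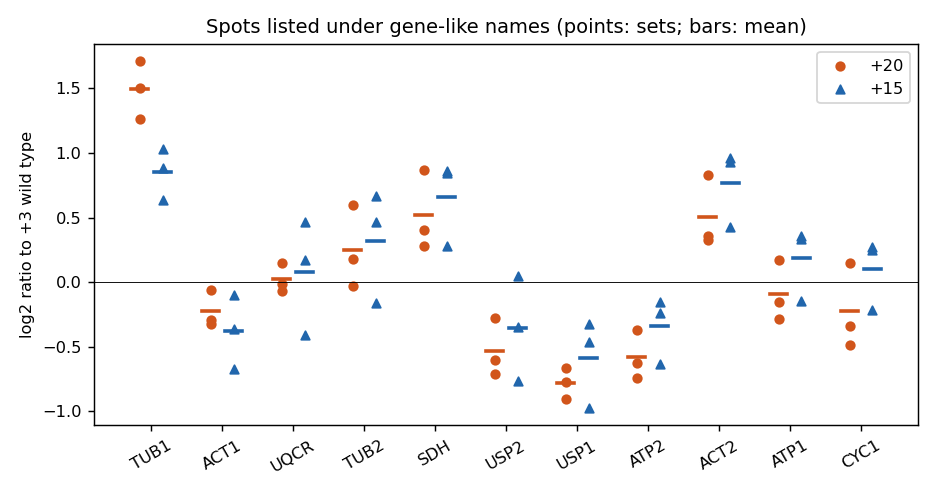
Log2 ratio to +3 wild type of the 11 spots under gene-like names; orange circles are sets of +20, blue triangles sets of +15, and bars the mean of 3 sets. TUB1 is the one spot called, at 1.49 ± 0.22 for +20 and 0.849 ± 0.20 for +15 (SD), while the sets of the ages overlap in ACT1, ACT2 and TUB2.

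The increases and the decreases had different courses over the ages. The 27 probes at least 2-fold higher at +20, without plate 108, had median ratios to +3 of -1.49 at age -3 and -0.73 on flowering day. At +5 and +10 the medians were 1.03 and 0.92, at +15 the median was -0.28, and at +20 it was 0.92. Their median at +20 thus matched that at +10, and +15 lay below both. With plate 108 kept, the 39 increases had medians of -0.66 and -0.22 at -3 and 0, then 0.92, 0.84, -0.33 and 0.88 at +5, +10, +15 and +20. The 67 probes at least 2-fold lower had medians of 0.47 at age -3, 0.16 on flowering day, then -0.01 and 0.24 at +5 and +10. At +15 the median was 1.40, the highest of the ages measured, and at +20 it was 0.07. With plate 108 kept, the 83 decreases had medians of 0.35 and 0.15 at -3 and 0, then -0.05, 0.08, 1.29 and -0.01 at the later ages. The medians of all 10191 probes tested lay between -0.04 and 0.04 at each of these ages. All these ratios share the +3 wild type, and the values at +15 and +20 chose the probes, so the courses are a description. The medians at +5 rest on sets 1 and 2 alone, and those at +10 on sets 1 and 3. The 2 kinds of array that plate 108 separates also fall along this course, with 0 and +15 on one kind and -3, +5, +10 and +20 on the other, and the part of the array kind in it was not tested.

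**Figure D5:**
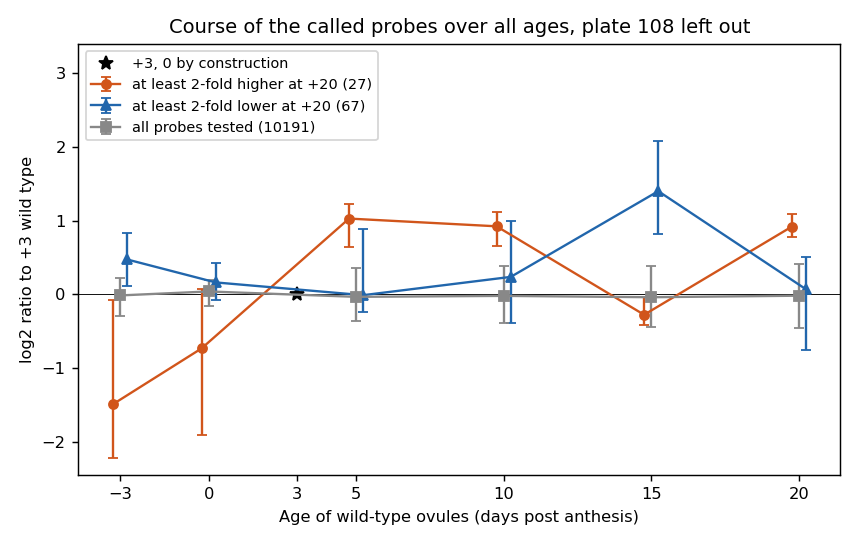
Median log2 ratio to +3 wild type at each age (days post anthesis) of the probes called and at least 2-fold higher (orange, 27) or lower (blue, 67) at +20 than at +15, and of all probes tested (grey), plate 108 left out; error bars span the quartiles and +3 is 0 by construction. The orange line dips at +15, to -0.28, and the blue line peaks there, at 1.40.

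Many of the increases were also raised in wild type against the fl mutant at +10, a comparison on arrays without +15, +20 or +3 RNA and of the same kind as those of +15. Over all 9210 probes tested there, 26.4% were higher and 39.8% lower in wild type. Of the 365 increases tested, 218 (59.7%) were higher and 96 (26.3%) lower in wild type, with a median of 0.60 on the log2 scale, while the median of the 9015 probes tested in both comparisons was -0.13. Of the 372 decreases tested, 95 (25.5%) were higher and 181 (48.7%) lower, with a median of -0.23. Without plate 108 the increases had 216 of 350 higher (61.7%) and a median of 0.65, and the decreases 93 of 356 higher (26.1%) and a median of -0.22. The increases called after scaling of every array had a median of -0.08. Of the increases called both before and after that scaling, 37 of 101 tested (36.6%) were higher and 45 (44.6%) lower in wild type, so the balance turned. With scaling kept within the 12 arrays it was 0.32, and with each array centred on its median 0.28.

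Individual clones showed both patterns. Of the 23 increases of at least 2-fold tested, without plate 108, 16 (69.6%) had the higher level in wild type. Their median of wild type over fl was 2.17. Of all 8967 probes tested in both comparisons without plate 108, 26.6% were higher and 39.7% lower. With plate 108 kept, 17 of 33 (51.5%) were higher and 10 (30.3%) lower, against 26.5% and 39.8% of all probes. The median of these 33 was 0.77. CM005H11, CM056G01 and CM032F06 were the highest of the named increases, at 4.56 ± 0.58, 3.89 ± 0.38 and 3.87 ± 0.21 (SD, n = 3; limma adjusted p = 1.29e-15, 5.31e-16 and 1.81e-12). CM042H01, CM059B02 and CM053E09, of the same course, were at 2.64, 2.27 and 2.17. In CM047E06 and CM118E07 wild type was the lower, with ratios of -0.44 ± 0.35 and -0.86 ± 0.15 (SD, n = 3). Of the 56 decreases of at least 2-fold tested without plate 108, 24 (42.9%) were higher in wild type, among them CM027E10 at 2.95 and CM034C01 at 2.40. Another 19 (33.9%) were lower, among them CM026D11 at -0.86. With plate 108 kept, 24 of 68 (35.3%) were higher and 29 (42.6%) lower, with a median of -0.04. That share of lower probes was near the 39.8% of all probes tested. For CM042D09 and CM084D01 the ratios of wild type to fl were 0.30 and 0.28 (adjusted p = 0.0712 and 0.0502), short of the threshold.

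Read the other way, 878 probes exceeded fl by 2-fold or more in wild type at +10, and 864 of them were tested between +20 and +15. Of these, 137 were higher at +20 (15.9%) and 31 lower (3.59%), against 3.93% and 4.04% of all probes. The typical probe of the list moved little. Its median difference was 0.05, with quartiles of -0.18 and 0.40, and the list medians of the sets were 0.38, 0.44 and 0.43 at +20, against 0.28, 0.36 and 0.37 at +15. After scaling of every array, 27 were higher (3.13%) and 21 lower (2.43%), against 1.2% and 2.28% of all probes. With scaling within the 12 arrays 128 were higher (14.8%) and 49 lower (5.67%), against 4.25% and 5.04% of all probes. Of the 364 probes lower in wild type by 2-fold or more, 342 were tested, of which 22 were higher at +20 (6.43%) and 32 lower (9.36%), with a median of 0.02.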

How the data were processed

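The authors deposited 1 table of log2 ratios, 11706 rows by 51 arrays. That the values are log2 was found from the values; the normalization method is not given in the sources used here, and array medians over clones lay between -0.04 and 0.01 on the 12 arrays used. Exact zeros, 516 to 2089 per array at +20 and 105 to 1728 at +15, were treated as not measured. Forward and dye-swap values, turned alike, were averaged within a set. The forward arrays of set 3 at +5 and set 2 at +10 had equal values in all 19 control and named spots measured on both. They were taken as 1 array under 2 labels and left out of both. Each measured 9699 clones, but their clone medians differed, at -0.02 and -0.19. This left sets 1 and 2 at +5 and sets 1 and 3 at +10.

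A group-means model of all 8 comparisons was fitted with limma 3.58.1 in R 4.3.3 (lmFit, contrast +20 minus +15, eBayes, Benjamini-Hochberg over all probes tested), for probes with at least 2 complete sets at both ages. SE and adjusted p rest on the spread of a probe over all comparisons, moderated by a prior of 6.12 degrees of freedom and an SD of 0.184. The fit was tested on simulated data. Sets of the same number at +20 and +15 deviated together with correlations of 0.26, 0.06 and 0.34. Sets 1 and 3 correlated best with their own number and set 2 did not. They were not treated as pairs in the main fit, and fits with the set number as a block are given below.

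Named clones were the 10 largest increases and decreases called before and after array scaling with sets that do not overlap, from 92 increases and 199 decreases. To these were added the same without plate 108, the 3 further increases and decreases of smallest adjusted p, the 2 largest each way not called after scaling, 4 clones leading both ages in an earlier analysis, and all 11 spots. The comparison, the members and the lists were chosen with earlier results of these data known. Clone names could not be matched to RefSeq (Gossypium_hirsutum_v2.1), and 3 of 11 spot names could, as synonyms. Alternatives varied scaling, centring, zeros, filters, samples in the fit, dyes, weights and sets; those without plate 108, scaling within the 12 arrays in a fit of both ages alone, and the wild type over fl readouts beyond array scaling were chosen after seeing the data.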

Additional observations from a re-analysis of the deposited data

How the results depend on the processing

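Of the 37 named results called, 933 values under up to 27 alternatives included 899 that kept direction and call, 34 that kept direction and lost the call (in CM019E04, CM025C03, CM032F06, CM037C09, CM089D03, CM105F01 and TUB1), and 0 that reversed. Part of this tally was fixed in advance. The clones chosen by size had to be called after array scaling, and the scaling and centring of arrays or plates left TUB1 unchanged. Of all probes called, 27.8% of the increases and 55.3% of the decreases were also called after array scaling. Probes called, against 817 (403 higher, 414 lower, 122 at least 2-fold), were 357 (123, 234 and 66) with array scaling, 451 (146 higher, 58 at least 2-fold) with centring and scaling, and 308 (102, 206 and 48) without plate 108 and with scaling. The 2-fold counts with every array scaled rest on the smaller differences stated above. Array centring gave 667 lower and a median of -0.015. Plate centring gave 1427 (656 higher, 771 lower), and array weights, whose estimation stopped before convergence, 2884 (1502 and 1382). Forward arrays alone gave 271 (116 and 155, with 1603 intervals within 0.5), and dye swaps alone 426 (171, 255 and 2818). Leaving out sets gave 292 to 603 called, 119 to 279 higher, 173 to 328 lower, 84 to 119 at least 2-fold, medians of -0.011 to 0.012, and 8006 to 9111 and 3037 to 4095 intervals within 1 and 0.5. With the set number as a replicate block, 851 were called (428 higher, 423 lower). In the fit of both ages alone 960 were called (497 and 463), against 598 without the block. Sets 1 and 3 correlated best with their own number, and set 2 did not. The median of wild type over fl at +10 was -0.084, 0.320 and 0.284 for increases under array scaling, scaling within the 12 arrays and centring, and -0.163 and -0.196 for decreases under the last 2. With array weights ACT2, ATP1 and CYC1 passed the threshold, at -0.456, -0.463 and -0.470. The causes were not tested.

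Apart from that median under array scaling, sign changes were in clones and spots not called. With array weights ACT1 was -0.0731, CM041D09 0.143 and CM086E04 -0.0065. CM086E04 was -0.388 and UQCR 0.157 in forward arrays, and TUB2 0.168 and CM099E09 0.536 in dye swaps. Relative to the median spot, SDH was 0.063, TUB2 0.130, UQCR 0.155, USP1 0.012 and USP2 0.031. CM099E09 was 0.302 with array scaling (with or without plate 108), 0.384 with scaling within the 12 arrays (either fit) and 0.273 with centring and scaling. Leaving out sets gave -0.079 to 0.326 for ACT1, -0.508 to 0.066 for SDH, -0.493 to 0.234 for TUB2, -0.357 to 0.188 for UQCR, -0.508 to 0.116 for USP2, -1.37 to 0.548 for CM041D09, -0.336 to 1.20 for CM086E04 and -0.374 to 0.115 for CM099E09.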
